A study of Mus musculus with 6 samples.

Results

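The CLC family and its accessory subunits were described by 8 genes of the 18193 that carry a symbol of their own on the array: the exchanger genes Clcn5, Clcn3, Clcn4, Clcn6 and Clcn7, the channel gene Clcn2, and the beta subunit genes Ostm1 and Bsnd. Taken were all probe sets annotated with 1 gene symbol that is one of these 8. This gave 19 probe sets, of which 17 were bright enough to be tested. The 2 groups were proximal tubules of Clcn5 knockout mice and of wild type mice, with 3 arrays each. Tubules were dissected by hand in ice-cold salt solution, 80 to 100 pieces of 2 mm per kidney, and RNA of several mice was pooled for each array. The labels give 3 to 4 mice per pool, and the records stored with the arrays give 7. Strain, sex and age of the mice, and the part of Clcn5 that was disrupted, are not given in the sources used here. Mice of both groups were under halothane and had the left kidney perfused, and no other treatment is stated. Since the stored records describe the 3 pools of each genotype as biological replicates, p-values refer to variation between pools.

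CLC proteins work as dimers in which each subunit has its own path for chloride. ClC-3 to ClC-7 sit mostly on endosomes and lysosomes and exchange chloride for protons, while ClC-2 is a chloride channel of the plasma membrane. In proximal tubule cells ClC-5 lies on endosomes under the brush border together with the proton pump, and mutations of the human gene cause Dent disease, with low molecular weight proteins and calcium in the urine. ClC-3 and ClC-4 are its closest relatives in sequence. ClC-7 needs the small membrane protein Ostm1 for its stability, and barttin, the product of Bsnd, is an accessory subunit of chloride channels of the plasma membrane in the loop of Henle, the distal nephron and the inner ear.

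All 8 genes were found in RefSeq, on mouse chromosomes X (Clcn5), 8 (Clcn3), 7 (Clcn4), 4 (Clcn6 and Bsnd), 17 (Clcn7), 10 (Ostm1) and 16 (Clcn2). The RefSeq promoter table (GRCm38.p6) held 11 windows for 7 of the 8 genes. Of the 3 genes with a changed probe set, Clcn5 is the disrupted gene, and Clcn4 changed on only 1 of its 2 probe sets. The 250 bases before the annotated start of these 3 genes are shown, at the first start listed for each. They lie at chrX:7319359-7319608 (Clcn5), chr8:60983312-60983561 (Clcn3) and chr7:7299558-7299807 (Clcn4), all on the minus strand, and are written 5′ to 3′ along the gene. Capitals mark the GC box GGGCGG or its reverse complement CCGCCC, and the E-box CACGTG, which reads the same on both strands. The E-box is also the core of the element through which TFEB, a regulator of lysosomal genes, binds DNA.
Clcn5 upstream window: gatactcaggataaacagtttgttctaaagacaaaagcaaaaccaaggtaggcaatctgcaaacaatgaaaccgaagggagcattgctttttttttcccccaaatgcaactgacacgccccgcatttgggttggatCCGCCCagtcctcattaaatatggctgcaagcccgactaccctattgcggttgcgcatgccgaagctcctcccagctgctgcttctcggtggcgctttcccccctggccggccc
Clcn3 upstream window: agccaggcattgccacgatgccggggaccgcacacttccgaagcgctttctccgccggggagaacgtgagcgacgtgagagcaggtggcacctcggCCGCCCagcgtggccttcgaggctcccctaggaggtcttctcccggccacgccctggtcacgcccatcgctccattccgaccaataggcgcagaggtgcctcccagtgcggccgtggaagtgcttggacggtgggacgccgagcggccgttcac
Clcn4 upstream window: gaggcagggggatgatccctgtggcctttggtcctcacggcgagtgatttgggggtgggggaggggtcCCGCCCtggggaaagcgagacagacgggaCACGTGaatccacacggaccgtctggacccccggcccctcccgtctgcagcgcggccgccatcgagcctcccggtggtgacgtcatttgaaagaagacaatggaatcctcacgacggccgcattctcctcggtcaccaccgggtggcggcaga
The windows of Clcn5 and Clcn3 each held 1 GC box, starting 114 and 154 bases before the start of the gene, and no E-box. That of Clcn4 held a GC box 182 bases and an E-box 153 bases before the start. Clcn6 had 2 E-boxes, 48 and 25 bases before its start, and Clcn7 had 1 at 15 bases. The stretch around the E-box is shown for these late endosomal and lysosomal genes, at chr4:148038844-148038873 on the minus strand (Clcn6, the more distant of its E-boxes) and at chr17:25133364-25133390 on the plus strand (Clcn7).
Clcn6 E-box: gctcgagagggcCACGTGaccctcccgggg
Clcn7 E-box: tccgtcgtcagtCACGTGggcaccgat
Over all 32851 windows of this length, 6.02% held an E-box and 32.7% a GC box, against 3 and 6 of the 11 windows of the member genes. In no member window did the motifs overlap. A match is a description of the letters only, and the arrays did not measure binding.

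Expression was read as probe set signals on Affymetrix mouse arrays, which the authors had scaled to a common mean. Signals of different probe sets cannot be set against each other, so levels are compared only between groups. The median signal was 40.9 to 48.8 on the knockout arrays and 42.7 to 45.3 on the wild type arrays. Of 22519 tested probe sets, 1071 (4.76%) passed limma at an adjusted p under 0.05, 516 higher in knockout (2.29%) and 555 lower (2.46%). The median log2 change over all of them was 0.00, and the median standard error was 0.13, so that the number of arrays limits the precision. Knockout array 3 alone had another solution lot in its stored record. Knockout array 3 and wild type array 2 ran on fluidics station 2, the other arrays on station 1. With each gene on its brightest probe set, as in every list of genes here, 2.80% of 11620 genes were higher in knockout and 2.80% lower. Of 8 proximal tubule markers, 7 are on the array, and none passed the threshold in either direction. Their summed signal was 24893 to 26377 in knockout and 23203 to 26490 in wild type. The smallest p among them was that of Slc22a6, the gene of a basolateral organic anion transporter, with signals of 3711, 3625 and 3674 in knockout and 3314, 3168 and 3485 in wild type. All its knockout arrays lay above the wild type arrays, but the difference did not pass (log2 change 0.14, limma adjusted p = 0.28). Markers of later nephron segments were also bright in both groups. Umod, the gene of uromodulin of the thick ascending limb, had signals of 3393 to 3720 in knockout and 2576 to 2837 in wild type on probe set 1426252_a_at. In such bulk samples, fewer cells of a type and less RNA per cell cannot be told apart.

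Clcn5, the disrupted gene, was lower in knockout on each of 4 probe sets, but signal remained on all of them. The values come without detection calls, so whether the remaining signal exceeded background was not tested. The median signal of the knockout arrays was 40.9 to 48.8. The remaining signal was nearest to it on 1441831_x_at and 1450787_at, and higher on 1429400_at and 1420295_x_at. On probe set 1429400_at the knockout arrays read 107, 111 and 127, against 821, 861 and 834 on the wild type arrays. The groups lay far apart, with 13.7% of the wild type signal left in knockout (log2 change −2.87, SE 0.09, limma adjusted p = 1.45e-07). The second, 1450787_at, annotated to a RefSeq transcript, read 49.1, 57.5 and 80.3 in knockout and 254, 269 and 259 in wild type. Here 23.4% of the signal remained (log2 change −2.10, SE 0.17, limma adjusted p = 7.48e-05). On 1420295_x_at the signals were 352, 322 and 269 in knockout and 1013, 709 and 1029 in wild type, and on 1441831_x_at they were 42.4, 35.4 and 59.5 in knockout and 115, 148 and 118 in wild type. For this pair, 34.6% and 35.3% remained (log2 changes −1.53, SE 0.15, and −1.50, SE 0.21, limma adjusted p = 0.00018 and 0.00229). In Affymetrix naming the suffix _x_at marks probe sets some of whose probes may also match other transcripts.

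The size of the drop in Clcn5 differed between its probe sets. Tested with limma's diffSplice over 4935 genes with several tested probe sets, of which 41 (0.831%) passed, Clcn5 had unequal changes (gene-level adjusted p = 0.0255). Against the other probe sets of the gene, 1429400_at lay lower by a log2 difference of −1.16 (diffSplice adjusted p = 0.0126). The other 3 did not pass, with log2 differences of 0.62 for 1420295_x_at, 0.66 for 1441831_x_at and −0.13 for 1450787_at. The gene-level call ended without knockout array 1 or 2 or any of the wild type arrays (adjusted p 0.0751 to 0.156). Which exons the probe sets read is not given in the sources used here, so the differences cannot be set beside the disrupted part of the gene. Knockout signals were dim on 1441831_x_at (35.4 to 59.5) and 1450787_at (49.1 to 80.3). With 50 added to each signal, the log2 changes there were −0.89 and −1.48, against −1.40 on 1420295_x_at and −2.43 on 1429400_at. With 50 added, the gene-level adjusted p of diffSplice was 0.000224. A stricter filter, a mean signal of at least 100, left 3 of the probe sets, without 1441831_x_at, and gave 0.0127. The part of dim signals in the unequal changes was not tested beyond these settings. The 4 drops themselves kept their direction and passed under every alternative that tested them. They were −1.60, −2.92, −1.59 and −2.27 on station 1 and −1.40, −2.77, −1.32 and −1.74 on station 2, for 1420295_x_at, 1429400_at, 1441831_x_at and 1450787_at in this order.

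Clcn3, the gene of the endosomal exchanger ClC-3, rose in knockout on all 4 of its tested probe sets, by 1.68-fold to 1.92-fold. On 1416610_a_at, annotated to a RefSeq transcript, the knockout arrays read 1440, 1423 and 1629, against 776, 713 and 852 on the wild type arrays. No knockout array reached down to the highest wild type array (log2 change 0.94, SE 0.08, limma adjusted p = 0.000121). On 1438366_x_at the signals were 2059, 2200 and 2139 in knockout and 1168, 1142 and 1291 in wild type (log2 change 0.83, SE 0.07, limma adjusted p = 7.48e-05). The remaining tested pair, 1433486_at and 1433487_at, are annotated to the same source sequence. Probe set 1433486_at read 1125, 1403 and 1178 in knockout and 717, 765 and 716 in wild type, a log2 change of 0.75 (SE 0.09, limma adjusted p = 0.000632). Probe set 1433487_at read 723, 869 and 964 in knockout and 436, 593 and 480 in wild type, a log2 change of 0.76 (SE 0.13, limma adjusted p = 0.00614). Its call ended without an intensity trend in the variance model (limma adjusted p = 0.0614), while the other 3 passed under every alternative that tested them.

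The rise of Clcn3 had a like size wherever it could be read. The 4 tested probe sets ran from 0.75 to 0.94 on the log2 scale, and diffSplice found no unequal change among them (gene-level adjusted p = 0.931). The fifth probe set, 1441248_at, was too dim for the filter, with signals of 43.0, 54.4 and 61.5 in knockout and 27.7, 28.3 and 32.7 in wild type. Its groups did not overlap either, and in a fit without the filter its log2 change was 0.83, with a 95% interval of 0.29 to 1.37 (limma adjusted p = 0.173). Station 1 gave log2 changes of 0.79 to 0.82 over the 4 tested probe sets, and station 2, with 1 array per group, 0.62 to 1.19. Leaving out any 1 array gave log2 changes between 0.65 and 1.01 over the same probe sets. Markers of other cells that were higher in knockout on the same arrays are given with Bsnd, and their part in the rise of Clcn3 was not tested.

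**Figure D1:**
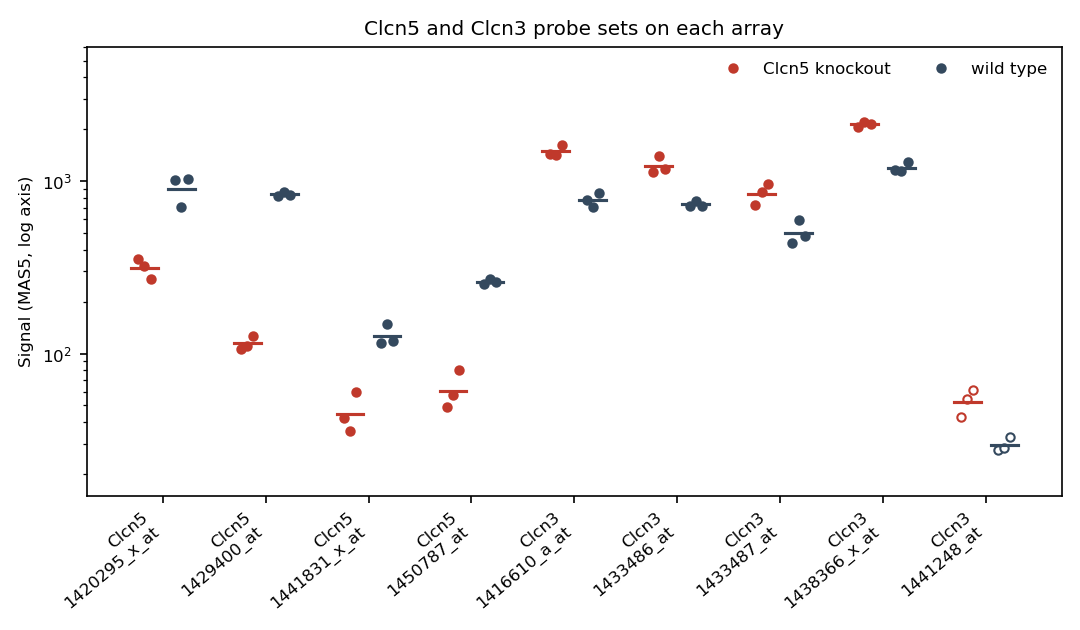
Signal of each Clcn5 and Clcn3 probe set (log axis) on the 3 Clcn5 knockout arrays (red) and the 3 wild type arrays (dark blue). Points are arrays, bars are geometric means, and open points mark a probe set too dim to be tested. The groups are separate on all 9 probe sets, with knockout below wild type for Clcn5 and above it for Clcn3.

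Clcn4, the gene of the third member of this branch, ClC-4, gave readings that differed between its probe sets. On 1448161_a_at the signals were 256, 241 and 257 in knockout and 178, 190 and 191 in wild type. This was 1.35-fold higher in knockout (log2 change 0.44, SE 0.09, limma adjusted p = 0.0178), and the groups did not overlap. On 1415986_at they were 460, 384 and 448 in knockout and 454, 475 and 485 in wild type, and the groups overlapped. There the log2 change was −0.13, with a 95% interval of −0.32 to 0.05 (limma adjusted p = 0.473). Both are annotated to the same reference transcript. The difference between their changes was 0.57 on the log2 scale and did not pass over all genes (diffSplice unadjusted p = 0.000688, adjusted p = 0.0629), and it did with 50 added to each signal, with quantile normalization and with the stricter filter (adjusted p 0.0307 to 0.0494). The call of 1448161_a_at ended without wild type array 1 (limma adjusted p = 0.0877), 2 (0.0611) or 3 (0.0555) and on station 1 alone (0.105), where the log2 change stayed between 0.40 and 0.45.

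Clcn6 and Clcn7, the genes of the late endosomal and the lysosomal exchanger, and Ostm1 did not pass the threshold on any probe set. Clcn6 read 191, 202 and 184 in knockout and 209, 213 and 200 in wild type on 1455440_at (log2 change −0.11, 95% interval −0.31 to 0.10), with overlapping groups. On 1422314_at it read 80.2, 112 and 76.9 in knockout and 98.3, 109 and 96.9 in wild type (log2 change −0.20, 95% interval −0.58 to 0.18), and knockout array 2 lay above all other arrays. For Clcn7, the signals of 1452702_at were 211, 229 and 157 in knockout and 242, 236 and 248 in wild type. All knockout arrays lay below the wild type arrays, but the distance did not pass (log2 change −0.30, 95% interval −0.60 to −0.0015, limma unadjusted p = 0.0491, adjusted p = 0.287). On its probe set 1450408_at they were 205, 206 and 280 in knockout and 309, 266 and 211 in wild type, with overlap (log2 change −0.18, 95% interval −0.54 to 0.17). The third, 1425821_at, was too dim to be tested, at 9.65 to 19.2 in knockout and 15.9 to 33.9 in wild type. Ostm1, the partner of ClC-7, read 299, 288 and 294 in knockout and 319, 278 and 304 in wild type. Its groups overlapped, and the log2 change of −0.03 had a 95% interval of −0.21 to 0.15.

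Of the plasma membrane members, Clcn2, the gene of a widely expressed chloride channel, read 44.4, 57.6 and 62.2 in knockout and 73.0, 47.9 and 41.6 in wild type. The groups overlapped fully at this dim signal, and the log2 change of 0.04 had a wide interval, from −0.52 to 0.60. Bsnd read 157, 234 and 147 in knockout and 234, 233 and 254 in wild type. Knockout arrays 1 and 3 lay below all wild type arrays and knockout array 2 lay among them. The log2 change was −0.45, with a 95% interval of −0.81 to −0.10, and did not pass over all probe sets (limma unadjusted p = 0.0175, adjusted p = 0.174). Without knockout array 2 it was −0.66 and passed (limma adjusted p = 0.00974), and on stations 1 and 2 it was −0.35 and −0.66.

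**Figure D2:**
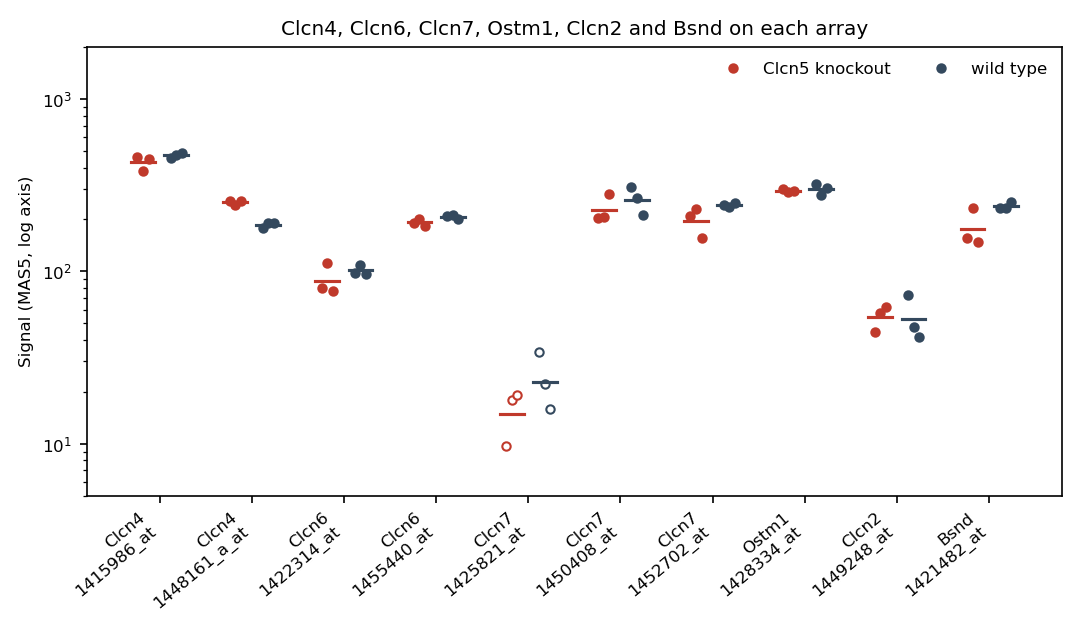
Signal (log axis) of the probe sets of Clcn4, Clcn6, Clcn7, Ostm1, Clcn2 and Bsnd on the 3 Clcn5 knockout arrays (red) and the 3 wild type arrays (dark blue). Points are arrays, bars are geometric means, and open points mark a probe set too dim to be tested. Clcn4 is separate between groups on 1448161_a_at but not on 1415986_at, and knockout array 2 stands apart from the other knockout arrays for Bsnd.

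Barttin is made in the thick ascending limb, the distal nephron and intercalated cells, so the markers of these cells are set beside it. Of 7 markers of the thick ascending limb and distal convoluted tubule, 3 rose and none fell, and their summed signal was 15979 to 16827 in knockout and 12727 to 14214 in wild type. The 3 were Umod (log2 change 0.41), Calb1, the gene of calbindin (0.44), and Pvalb, the gene of parvalbumin (0.46), against the 2.80% of all genes called higher. The other 4 did not pass, and the log2 changes were 0.27 for Slc12a1 and −0.02 for Kcnj1, of a cotransporter and a potassium channel of the thick limb, −0.12 for Slc12a3, of the cotransporter of the distal tubule, and 0.12 for Cldn16, of a tight junction protein. Umod and Calb1 were the largest terms of the sum. Without this pair it was 5592 to 6115 in knockout and 5331 to 6095 in wild type, and the groups overlapped. Of 7 intercalated cell markers, 3 rose and none fell, with sums of 2803 to 2934 in knockout and 2215 to 2322 in wild type. These were Aqp6, the gene of an intracellular aquaporin (log2 change 0.64), Slc4a1, the gene of the basolateral anion exchanger (0.58), and Slc26a4, the gene of pendrin (0.27), and the other 4 had log2 changes of 0.05 to 0.36. Among 5 principal cell markers 1 fell, Aqp3, the gene of a basolateral water channel (log2 change −0.53), and the sums were 1945 to 2112 in knockout and 2361 to 2723 in wild type. The other 4 did not pass, with log2 changes of −0.49 for Aqp2, −0.03 for Scnn1b, 0.28 for Scnn1g and −0.06 for Avpr2. Aqp2 and Aqp3 were the largest terms of this sum, and the principal cell sum without them was not taken. Of 4 podocyte and 6 leukocyte markers on the array, 2 and 1 rose, Synpo, Nphs1 and Laptm5, with sums of 1070 to 1362 and 690 to 745 in knockout and 856 to 904 and 490 to 559 in wild type. Laptm5 had a log2 change of 0.65 there, but −0.07, 0.21 and 0.06 on its other 3 tested probe sets. None of 5 endothelial markers passed, and the smallest p was that of Emcn, the gene of endomucin (log2 change 0.15, limma adjusted p = 0.371). The part of the cell makeup in the values of the member genes was not tested. For the same lack of detection calls, no marker could be called absent.

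**Figure D3:**
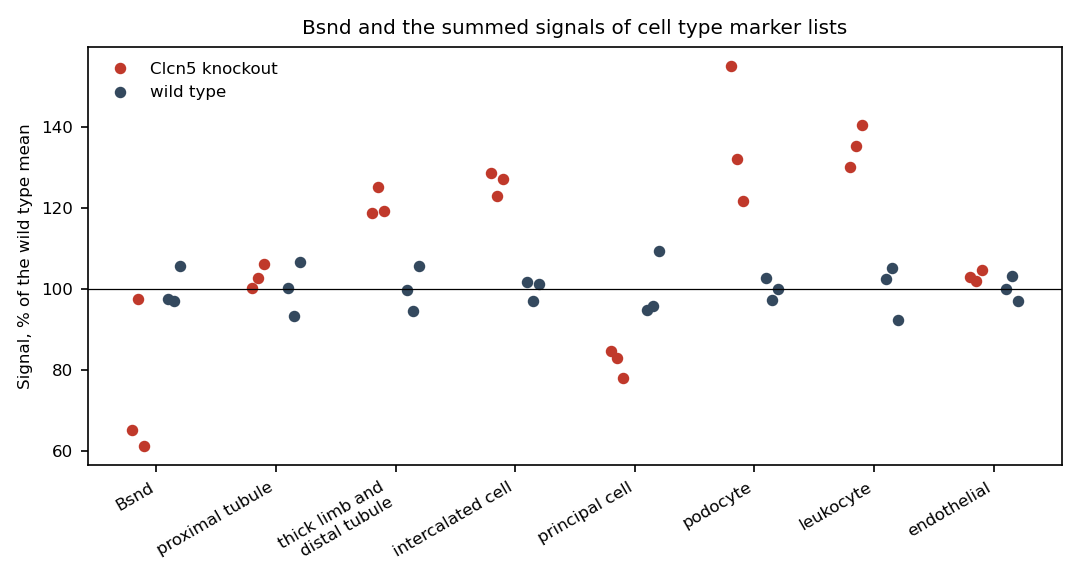
Signal of Bsnd and summed signals of the marker lists on each array, in percent of the mean of the 3 wild type arrays, for Clcn5 knockout (red) and wild type (dark blue). Points are arrays, each gene of a list is represented by its brightest probe set, and the axis does not start at 0. The knockout arrays lie above wild type for the thick limb and distal tubule and intercalated cell markers, the first of these sums through Umod and Calb1, while Bsnd lies below it on 2 of the 3.

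Set side by side, the calls fell among the endosomal and lysosomal genes. Of their 15 tested probe sets, 5 rose (Clcn3 on 4, Clcn4 on 1), 4 fell (Clcn5) and 6 did not pass, where 2.29% of all tested probe sets rose and 2.46% fell. Without Clcn5 the median log2 change of 11 tested probe sets was −0.03, with a range of −0.30 to 0.94. Both tested probe sets of the plasma membrane genes did not pass, and their log2 changes were 0.04 and −0.45. With only 2 probe sets in that class, the difference between the classes was not tested. Among all 17 tested member probe sets, the 3 knockout values lay above the 3 wild type values in 5 and below them in 5. Over all tested probe sets, 12.0% and 11.2% did so. Of the 5 below, 4 were of Clcn5, the disrupted gene. Among the 13 tested probe sets of the other members, the knockout values lay above in 5 and below in 1. The 5 that rose belong to 2 genes, and probe sets of 1 gene were read in the same pools and are not independent. When each gene was represented by its brightest probe set, Clcn3 rose, Clcn5 fell and the other 6 did not pass, since the brightest probe set of Clcn4 is 1415986_at.

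**Figure D4:**
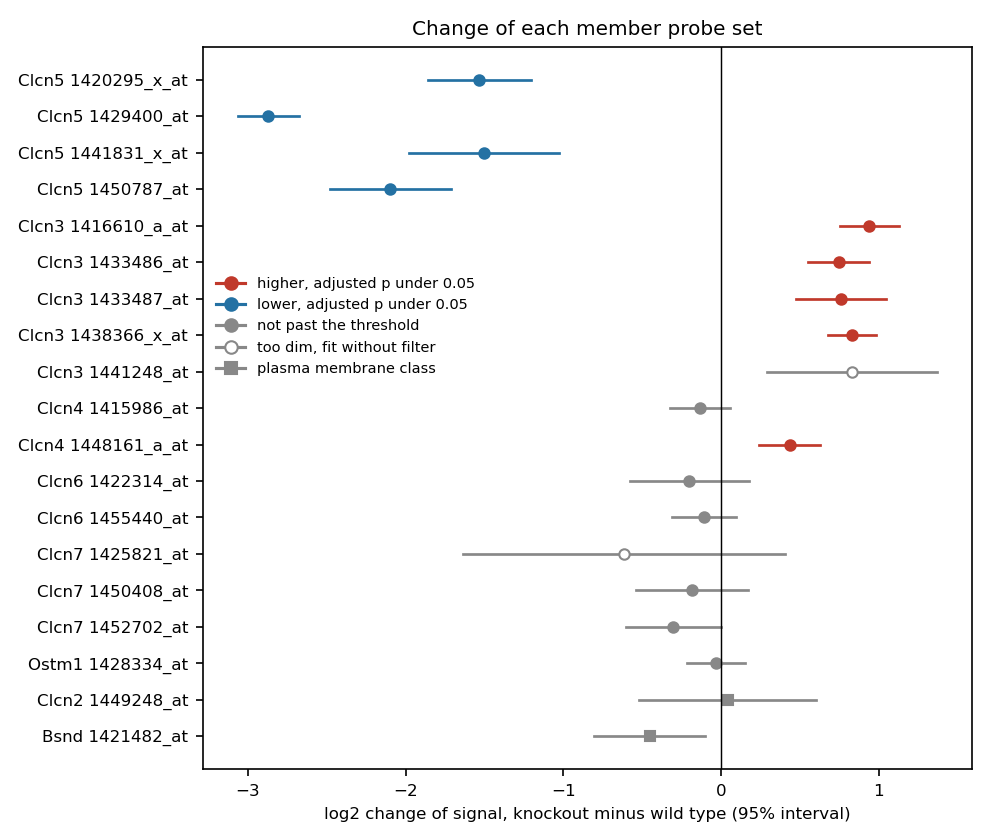
Log2 change of signal (knockout minus wild type) with its 95% interval from limma for all 19 member probe sets. Colours mark an adjusted p under 0.05, squares mark Clcn2 and Bsnd, and open circles mark the 2 probe sets too dim to be tested, fitted without the filter. The changes run from −2.87 for Clcn5 to 0.94 for Clcn3.

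Genes around the family were described by 4 lists. The first held Clcn1, of the muscle channel, whose probe set was too dim to be tested (8.88 to 20.7 in knockout and 13.7 to 27.2 in wild type). Of 12 genes whose proteins are known to bind, sort or regulate CLC proteins, 10 were tested on their brightest probe set and none passed, with a median log2 change of 0.00. The smallest p was that of Nedd4l, the gene of a ubiquitin ligase that acts on ClC-5, at 0.20 (limma adjusted p = 0.13). Tmem9 and Tmem9b, whose products are beta subunits of ClC-3, ClC-4 and ClC-5, were singled out after their values were seen. Tmem9 had a log2 change of −0.40 (95% interval −0.81 to 0.01), and Tmem9b had 0.19 (0.04 to 0.35) and 0.12 (−0.34 to 0.58) on 2 probe sets, none of which passed (limma adjusted p 0.185 to 0.825).

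Over all genes on their brightest probe set, 2.80% were called lower and 2.80% higher. Among 19 tested genes of other anion channels and related proteins, 1 fell and none rose, with a median log2 change of 0.07. This was Pacc1, the gene of a proton-activated chloride channel that also works in endosomes. Probe set 1417031_at read 108, 96.8 and 113 in knockout and 158, 167 and 154 in wild type, so the groups were separate (log2 change −0.59, SE 0.12, limma adjusted p = 0.0157). Its other 3 tested probe sets had log2 changes of −0.16, −0.05 and −0.36. Of 15 tested genes for other ion transport across endosomes and lysosomes, proton pump subunits among them, 1 fell and none rose (median log2 change −0.01). It was Mcoln1, the gene of a lysosomal cation channel, which read 378, 337 and 403 in knockout and 541, 529 and 514 in wild type on 1416671_a_at (log2 change −0.51, SE 0.08, limma adjusted p = 0.00493). Its other probe set was at −0.49 (limma adjusted p = 0.0266).

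The genes whose profile over the 6 arrays was most like that of Clcn5 and Clcn3 were found by the root mean square difference of centred log2 signals, with no test. For Clcn5 on 1420295_x_at they were Blvrb, the gene of biliverdin reductase B (difference 0.15), Apob, of apolipoprotein B (0.16), and Igha, of an immunoglobulin heavy chain (0.16), with log2 changes of −1.49, −1.50 and −1.34. For Clcn3 on 1438366_x_at they were Shmt1, of a serine hydroxymethyltransferase (difference 0.05), Cdk5rap1 (0.05) and Fam114a2 (0.05), with log2 changes of 0.83, 0.77 and 0.88. Since the arrays form 2 groups, such a likeness reflects mostly the difference between knockout and wild type.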

How the data were processed

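Biotin-labelled RNA pools of dissected proximal tubules were hybridised to 6 Affymetrix mouse arrays, 3 of Clcn5 knockout and 3 of wild type mice. Per the labels' protocols, RNA was extracted with Trizol, pooled and amplified once with oligo dT priming, so probes read mostly transcript ends. The authors deposited linear signal intensities made, per the submitters' processing notes, with MAS5 and GCOS 1.4, and a mean of 150 on each array after trimming shows their scaling. The deposited array records hold text and were read for station, solution lot and pool. No genome build is named, and promoter coordinates are RefSeq's own.

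The log2 of each signal was taken with nothing added. Of 45037 probe sets that are not controls, 22519 whose mean log2 signal reached the median (a signal of 41.9) were tested with limma 3.58.1 under R 4.3.3 (lmFit, eBayes with intensity trend, two-sided, 4 residual degrees of freedom per probe set, Benjamini-Hochberg over all tested), and probe sets of 1 gene with diffSplice. The steps were tested on simulated data. Members, gene lists and tests were chosen with earlier results of these data known. Named are all member probe sets, of each list up to 4 genes past the threshold or else the one with the smallest p, and the 3 profiles most like Clcn5 and Clcn3. Tmem9, Tmem9b and the sum without Umod and Calb1 were added after their values were seen. So were the other 4 thick limb and distal tubule markers and the other 4 principal cell markers. Tables used pandas 2.3.3 and numpy 2.4.6 under Python 3.11.15, and plots used matplotlib 3.10.9. Alternatives changed scale, normalization, filter, variance model, array weights, station or replicate block and probe set choice, or left out 1 array. A fit on station 1 alone was added after seeing the data.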

Additional observations from a re-analysis of the deposited data

How the results depend on the processing

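The 3 tested Clcn3 probe sets other than 1433487_at and the 4 of Clcn5 passed under every alternative that tested them, and no called member probe set changed sign. The count of all probe sets past the threshold was 615 without an intensity trend, 651 on station 1 alone, and 663 to 1022 when 1 array was left out. With 1 probe set a gene, the members past the threshold numbered 1 higher and 1 lower, by construction a count of genes. The number of member genes with unequal change was 2 with 50 added to each signal, with quantile normalization and with the stricter filter (a mean signal of at least 100), where Clcn4 joined Clcn5. It was 0 to 1 when 1 array was left out. With the replicate number as a block it was 0 (Clcn5 adjusted p = 0.155), while the count of all probe sets was 1101 and the members past the threshold were 5 higher and 4 lower, as without the block. The deviations of same-numbered arrays correlated at 0.01, 0.04 and −0.04, and knockout array 1 correlated best with wild type array 3 (0.05), so the numbers were not taken to pair the arrays. With the fluidics station as a block the members past the threshold were again 5 higher and 4 lower. The variance trend does not enter diffSplice. The cause of these shifts was not tested. Clcn2 changed sign without a call in 6 alternatives and Ostm1 in 1. Signals near background limit Clcn2, 1425821_at and 1441248_at, and in knockout also Clcn5 on 1441831_x_at and 1450787_at.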
